A study of Homo sapiens with 18 samples.

Results

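Gene levels in COLO 201, a line from a human colon cancer, were compared with those in H1975, a line from a human lung cancer, in cells that had received vehicle and no inducer. The members of the comparison were the 6 vehicle columns of the deposited expression tables, 3 of COLO 201 and 3 of H1975, out of 18 samples in the series. The study silenced MUC1 with a hairpin RNA whose transcription is switched on by doxycycline (tet-MUC1shRNA) and asked about the NKG2D ligands MICA and MICB and about the release of exosomes. All cells of both lines carried that construct and a puromycin resistance gene, had grown in RPMI1640 medium with 10% fetal bovine serum in triplicate cultures, and in the vehicle arm had 0.1% DMSO in place of doxycycline at 500 ng/ml. The hairpin was therefore present and not induced in every column used here. Whether a line was 1 clone or a mixed population was not given in the sources used here. The vehicle arm was read from the column headings, since every sample record names the same agent. MUC1 was at 15.6, 17 and 16 TPM in the COLO 201 columns and 90.4, 72.4 and 88.5 TPM in the H1975 columns so read as vehicle, and at 2.3, 2.01 and 1.81 TPM and 6.18, 8.42 and 6.32 TPM in those headed with doxycycline, in the direction of the headings. No label says that the 3 columns of a line came from separate stocks of cells, so the p-values measure only the spread between these samples, which may be technical.

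COLO 201 is a line of a colorectal adenocarcinoma that is known to carry mutant BRAF, and H1975 is a lung adenocarcinoma line known for mutant EGFR. Epithelial cells of the gut are specified by transcription factors such as CDX2 and HNF4A, build a brush border around the actin bundler villin, and renew from stem cells that depend on Wnt signalling through beta-catenin and TCF factors. The alveolar epithelium of the lung is specified by NKX2-1, which drives the surfactant genes. Cancer cells of either origin can lose part of these programmes and take on mesenchymal genes such as vimentin.

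Each gene has a TPM, a read count per transcript length scaled so that a column adds up to one constant total. TPM shares therefore depend on a few very abundant genes: histone genes took 14.2% to 15.3% of TPM in the COLO 201 columns and 1.17% to 1.27% in the H1975 columns, and mitochondrially encoded genes 20.1% to 23% and 17.4% to 22.5%. Whether the gap in histone genes came from the cells or from the preparation of the libraries was not tested, and the 2 cannot be told apart here. Both groups of genes were left out, and the 6 columns were rescaled so that the median gene had the same level in each. Of 19881 genes listed for both lines, 19798 were compared, and 2566 of them were at 0 in all 6 columns. The absolute depth is unknown, since TPM keep no read totals, and the relative depth of the columns differed by up to 1.69-fold within COLO 201 and 2.22-fold within H1975. The step that 1 read makes in TPM could be read for 373 genes in both tables, and for 336 of them (90.1%) its ratio between the tables lay within 0.3 (log2) of the common ratio, so that gene lengths were nearly alike in both tables for these genes. Each line has its own table, so line and table cannot be told apart, and the text leads with large differences. In bulk RNA a gene expressed by fewer cells and a gene with less RNA per cell also cannot be told apart.

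A difference is given as COLO 201 minus H1975 on the scale log2(rescaled TPM + 1), which understates the change of genes of low level. Of 12463 genes with a mean of at least 1 rescaled TPM over the 6 columns, 5384 were higher in COLO 201 (43.2%) and 5970 higher in H1975 (47.9%) at an adjusted p under 0.05 (limma, Benjamini-Hochberg). With the TPM as deposited the split was 3500 to 7885, and the median gene moved from -0.07 to -0.48. Calls of this kind are therefore the rule and not the exception, and a gene is called large here where it passed the test and differed by 2 or more, a 4-fold change for genes well above 1 TPM. By that rule 887 genes were higher in COLO 201 (7.12% of those tested) and 1082 higher in H1975 (8.68%). The columns of the lines did not overlap in any of these 1969 genes, whose largest adjusted p was 1.1e-04 (limma). A lack of overlap is also the rule, here and below, as it held for 11391 of all tested genes (91.4%). The remaining genes were closer, with 7710 of the tested genes (61.9%) within 1 of each other. Across genes, Pearson's r was at least 0.9965 between columns of a line and 0.670 to 0.679 between columns of different lines. Just inside the threshold towards COLO 201 stood SRSF4 (119.9 ± 1.06 against 29.2 ± 0.42 TPM) and CC2D1A (90.2 ± 2.84 against 21.8 ± 1.24 TPM), and just outside it LRIG1 (16.8 ± 0.126 against 3.5 ± 0.494 TPM) and CDK5RAP2 (85.1 ± 0.581 against 20.6 ± 0.316 TPM), as means ± SD of 3 columns. Towards H1975, SLC2A11 (6.29 ± 0.105 against 0.822 ± 0.0722 TPM) and GLRB (3.04 ± 0.582 TPM against 0) were just inside, and PAN2 (39.2 ± 1.81 against 9.04 ± 0.244 TPM) and ZNF37A (30.6 ± 2.34 against 6.9 ± 0.341 TPM) just outside.

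**Figure D1:**
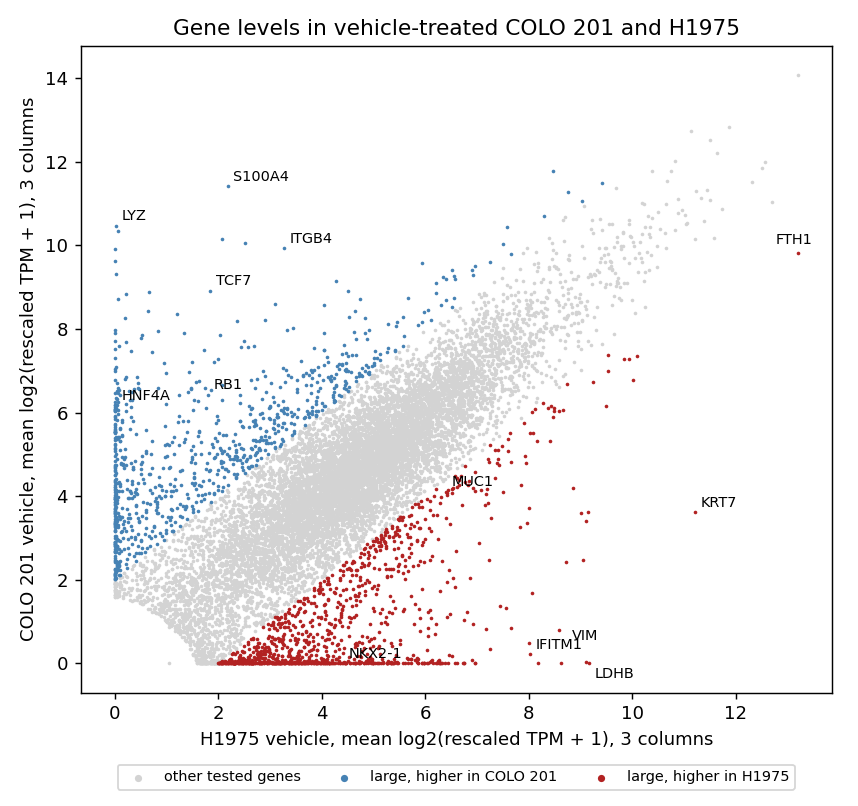
Mean log2(rescaled TPM + 1) of each tested gene over the 3 H1975 vehicle columns (x axis) and the 3 COLO 201 vehicle columns (y axis). Blue and red points are the genes with a large difference, and many of them lie along an axis, at or near 0 in the other line. Genes of the Y chromosome and XIST are not drawn.

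The strongest differences were between genes that were abundant in one line and near 0 in the other. LYZ, the antibacterial enzyme lysozyme, stood at 1433, 1388 and 1437 TPM in the COLO 201 columns and at 0, 0 and 0.0596 TPM in the H1975 columns. PHGR1, a small protein of the intestinal surface, stood at 1241, 1234 and 1406 TPM against 0, 0 and 0.13 TPM. PLA2G2A, a secreted phospholipase of the gut, stood at 984, 949 and 971 TPM and was listed at 0 in each H1975 column. In all 3 genes the lines were fully apart, and the COLO 201 columns lay close together. CALML3, a calmodulin-like protein of epithelia, averaged 786 ± 21.8 TPM (SD, n = 3, as for the values that follow), PCK1, an enzyme of gluconeogenesis, 238 ± 12.5 TPM, and both were listed at 0 in H1975. The calcium-binding protein S100A4 reached 2743 ± 83.5 TPM against 3.58 ± 0.781 TPM, and KLK6, a serine protease, 474 ± 7.67 TPM against 0.584 ± 0.207 TPM. PRSS1, the pancreatic trypsinogen, averaged 458 ± 5.23 TPM and 0.163 ± 0.136 TPM. LCK, a Src family kinase best known from T cells, averaged 308 ± 8.15 TPM in COLO 201 and 0.152 ± 0.0432 TPM in H1975. The other genes among the 15 with the greatest difference towards COLO 201 were DUSP27, DNAJC15, GPX2, ALDH1A1, EPHB6 and ANO1.

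On the H1975 side the greatest difference was that of LDHB, the B subunit of lactate dehydrogenase, listed at 0 in each COLO 201 column and at 570.3, 567 and 579 TPM in the H1975 columns. VIM, the intermediate filament vimentin, followed with 0.0463, 0.0339 and 0 TPM in COLO 201 and 537, 555 and 568 TPM in H1975. KRT7, a keratin of lung and other simple epithelia, was at 11.4, 11.6 and 10.9 TPM against 2404, 2139.8 and 2619 TPM. The lines were again fully apart, with KRT7 still detected in COLO 201. PEG10, an imprinted gene derived from a retrotransposon, averaged 392 ± 12.5 TPM in H1975 and 0.00791 ± 0.00217 TPM in COLO 201. The stress-induced chromatin protein NUPR1 averaged 381 ± 14.6 TPM and 0.761 ± 0.336 TPM, and the lipase inhibitor G0S2 254 ± 1.74 TPM and 0.406 ± 0.137 TPM. OSMR, the receptor subunit for oncostatin M, stood at 107 ± 3.3 TPM and 0.00196 ± 0.00339 TPM. The other 8 of the 15 were BASP1, IFITM1, CXorf61, HMGN3, PLTP, ZNF880, PTRF and CALD1. Levels of at least 10 TPM in every column of one line and under 0.1 TPM in every column of the other were found for 128 genes in COLO 201 and 190 in H1975.

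The lists below hold members by what is known of them, and a gene could be tested only where its mean over both lines reached 1 TPM. A member silent in one line was therefore tested only if the other line expressed it, and counts are given over all members of a list. Over all genes compared, 4.48% were large and higher in COLO 201 and 5.47% large and higher in H1975, and the median difference was 0. Of all tested genes 43.2% were called higher in COLO 201 and 47.9% in H1975, and the called counts below stand beside these shares.

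Genes of the intestinal epithelium that could be tested differed more often towards COLO 201 than towards H1975, and many were under the minimum, the classical colon factors CDX1 and CDX2 among them. Of 28 intestinal transcription factors 19 were tested, 15 were higher in COLO 201 and 3 in H1975, 10 had a large difference towards COLO 201 and 1 towards H1975. HNF4A, a nuclear receptor of gut and liver epithelium, stood at 70, 69.9 and 74 TPM in COLO 201 and 0.00806, 0.0526 and 0.0178 TPM in H1975. ASCL2, a stem cell factor that acts with Wnt signalling, stood at 128, 122 and 129 TPM and was listed at 0 in H1975. The homeobox factor PROX1 (65.4 ± 3.29 TPM) and the ETS factor EHF (189 ± 0.374 TPM) were also present in COLO 201, against 0 and 4.45 ± 0.631 TPM in H1975. EHF was thus detected in both lines. CDX2, which directs intestinal identity, was at 0.146, 0.136 and 0.0511 TPM in COLO 201 and 0 in H1975, and CDX1 was listed at 0 in all 6 columns. CREB3L1, a membrane-bound factor of secretory cells, was the 1 large difference towards H1975, at 3.86 ± 0.597 TPM against 31.3 ± 0.388 TPM.

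Of 36 markers of the brush border and of intestinal junctions 19 were tested, 12 were large towards COLO 201 and 3 towards H1975. VIL1, which encodes villin, stood at 136, 135 and 137 TPM in COLO 201 and 0.0252, 0.0206 and 0.0185 TPM in H1975. USH1C, a scaffold that links microvilli, averaged 91.1 ± 1.94 TPM against 0.217 ± 0.036 TPM. The gut lectin LGALS4 averaged 65.6 ± 4.94 TPM and the keratin of mature colonocytes KRT20 16.6 ± 0.851 TPM, against 0.00851 ± 0.0147 and 0.0216 ± 0.0224 TPM. CDH17, the liver-intestine cadherin, did not follow them and was at 0.497, 0.556 and 0.39 TPM in COLO 201, under the minimum for the test. The peptidase ANPEP was large in the opposite direction, with 0.0491 ± 0.0447 TPM in COLO 201 and 17.4 ± 1.05 TPM in H1975, as were CPS1 and CLDN15. The label of a colon line was thus met by HNF4A, VIL1, LGALS4 and KRT20, while CDX1, CDX2 and CDH17 were at or near 0.

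Of 23 goblet and secretory cell markers 9 were tested, 7 were large towards COLO 201 and 1 towards H1975. TFF3, the trefoil peptide of goblet cells, was at 49, 48.2 and 59.8 TPM in COLO 201 and listed at 0 in H1975. AGR2, a disulfide isomerase needed for mucin folding, averaged 150.5 ± 5.88 TPM against 11.2 ± 0.245 TPM, and the gel-forming mucin MUC5B 29.9 ± 0.388 TPM against 0.00763 ± 0.00406 TPM. The protease inhibitor SPINK1 was the member higher in H1975, at 4.05 ± 0.399 TPM against 0.0422 ± 0.0116 TPM. Of the remaining 14 members, which did not reach the minimum, 8 were at 0 in all 6 columns.

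Target genes of the Wnt pathway formed one of the clearest contrasts. Of 25 members 21 were tested, 14 had a large difference towards COLO 201 and 2 towards H1975, and the median over all 25 was 3.0. AXIN2, a feedback inhibitor that is itself a target, was at 109.8, 111 and 112 TPM in COLO 201 and 0.104, 0.156 and 0.192 TPM in H1975. The nuclear factor TCF7 was at 480.2, 483 and 483 TPM against 2.5, 2.64 and 2.66 TPM. SMOC2, a secreted protein of intestinal stem cells, was at 179.9, 185 and 183 TPM and listed at 0 in H1975. All 3 were fully apart between the lines and differed little among the columns of COLO 201. The feedback inhibitor NKD1 averaged 114 ± 1.09 TPM against 0.353 ± 0.0675 TPM, and the stem cell receptor LGR5 9.67 ± 0.275 TPM against 0.0079 ± 0.0072 TPM. Members in the other direction were DKK1, a secreted Wnt inhibitor, at 0.0111 ± 0.0192 TPM in COLO 201 and 60.2 ± 2.57 TPM in H1975, and the growth regulator MYC at 74.6 ± 0.938 TPM and 310.2 ± 16.7 TPM. The cyclin CCND1 was also higher in H1975 (413 ± 11.2 against 208 ± 3.84 TPM), short of the threshold.

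Markers of the lung epithelium pointed to H1975 less uniformly. Of 34 members 15 were tested, 8 were large towards H1975 and 2 towards COLO 201. NKX2-1 was listed at 0 in each COLO 201 column and was at 20, 19.8 and 21.5 TPM in H1975. ABCA3, the lipid transporter of surfactant storage, was at 28.3, 27.7 and 29.8 TPM in H1975 and 0.0688, 0.0952 and 0.0688 TPM in COLO 201. LAMP3, a membrane protein of lamellar bodies, averaged 34.6 ± 0.917 TPM against 1.46 ± 0.00895 TPM, and SFTA3 8.67 ± 0.434 TPM against 0. The surfactant genes themselves were weak: SFTPB was at 0.183, 0.354 and 0.26 TPM in H1975, under the minimum for the test, and NAPSA, the protease that matures surfactant proteins, at 3.83, 2.96 and 4.1 TPM against 1.19, 0.639 and 0.764 TPM in COLO 201. The 2 large differences towards COLO 201 were SFTA2 (6.83 ± 1.07 against 0.0408 ± 0.0707 TPM) and KRT5 (5.37 ± 0.628 against 0.00847 ± 0.0147 TPM), a keratin of basal cells. The label of a lung line was thus met by NKX2-1, ABCA3 and LAMP3, with SFTPB near 0.

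**Figure D2:**
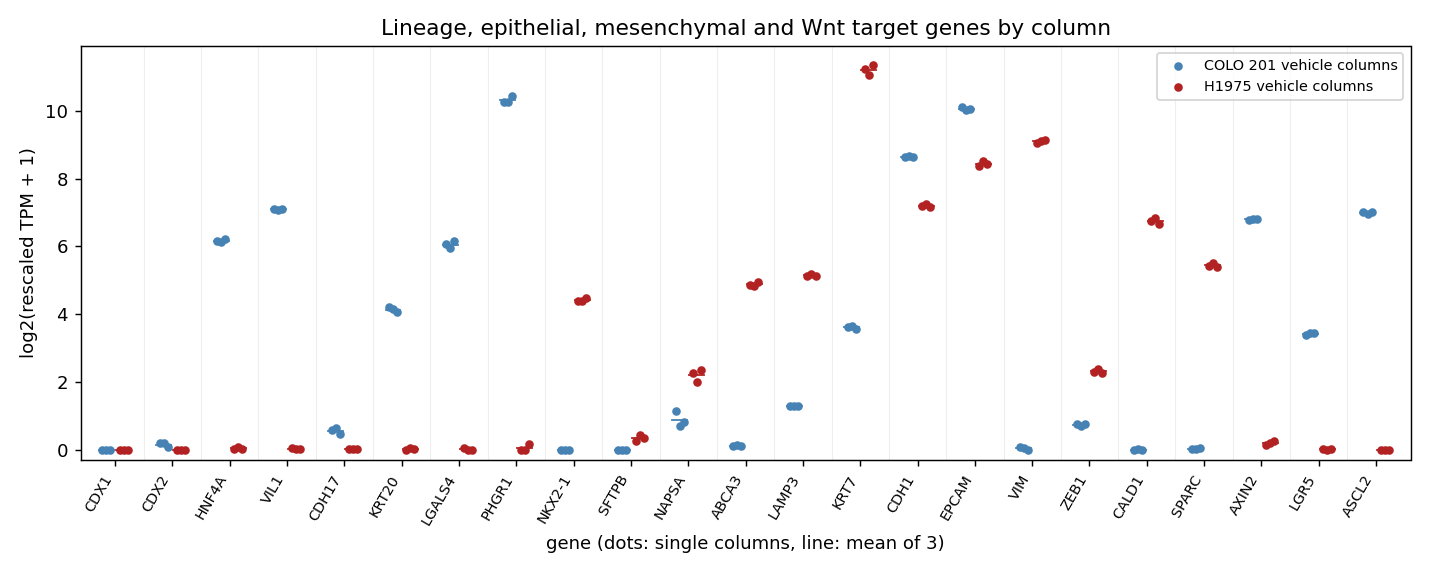
log2(rescaled TPM + 1) of 23 lineage, epithelial, mesenchymal and Wnt target genes in each vehicle column, with dots for single columns and a line for the mean of 3. HNF4A, VIL1, PHGR1, AXIN2 and ASCL2 are high only in the COLO 201 columns, NKX2-1, VIM, CALD1 and SPARC only in the H1975 columns, and CDX1 and CDX2 are at or near 0 in both lines.

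Both lines expressed the general epithelial genes, COLO 201 at higher levels for most. All 44 junction and keratin genes were tested, 32 were higher and 10 lower in COLO 201, but 35 of them were not large, and the median was 0.90. CDH1, the adhesion molecule E-cadherin, was at 396, 404 and 401 TPM in COLO 201 and 144, 152 and 144 TPM in H1975, a 2.73-fold difference. EPCAM was at 1113, 1050.1 and 1059 TPM and 332, 367 and 343 TPM. Neither gene was near 0 in either line. Large differences towards COLO 201 included KRT8 (2505 ± 60.6 against 432 ± 24 TPM), KRT23 (45.6 ± 1.42 against 0 TPM), the tight junction scaffold TJP3 (31.1 ± 1.02 against 1.92 ± 0.153 TPM) and the desmosomal EVPL (114 ± 4.1 against 9.62 ± 0.524 TPM). KRT7 and the claudin CLDN1 (0.641 ± 0.191 against 14.1 ± 1.16 TPM) were the 2 large differences towards H1975.

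Mesenchymal genes were mostly higher in H1975. Of 49 members 34 were tested, 18 were large towards H1975 and 3 towards COLO 201, and the median over all 49 was -0.98. Beside VIM, the actin-binding CALD1 was at 106, 114 and 100.3 TPM in H1975 and 0, 0.00609 and 0 TPM in COLO 201. MSN, the membrane-actin linker moesin, was at 411, 424 and 425 TPM and 4.51, 4.26 and 4.4 TPM. MYL9, a myosin light chain, averaged 173 ± 6.68 TPM against 1.61 ± 0.415 TPM. The repressor of E-cadherin ZEB1 was low in both lines, with 4.0 ± 0.213 TPM in H1975 and 0.666 ± 0.0234 TPM in COLO 201. S100A4, SERPINE2 (18.8 ± 0.469 against 0.0373 ± 0.0155 TPM) and the TAM receptor ligand GAS6 (17.5 ± 0.229 against 0.705 ± 0.0627 TPM) went the other way.

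Extracellular matrix genes behaved alike, with 34 of 47 tested, 17 large towards H1975 and 3 towards COLO 201. The proteoglycan SPOCK1 averaged 54.5 ± 3.09 TPM in H1975 and 0.0535 ± 0.023 TPM in COLO 201, VCAN 49.8 ± 3.71 TPM and 0.00909 ± 0.00555 TPM, and SPARC, a collagen-binding glycoprotein, 42.8 ± 1.92 TPM and 0.0188 ± 0.013 TPM. The fibrillar collagen genes COL5A1 (30.4 ± 1.19 against 0.0096 ± 0.00839 TPM) and COL1A1 (29.3 ± 2.1 against 0.453 ± 0.028 TPM) were of the same direction. DCN, PDGFRA and THY1, which mark fibroblasts and were named after their values were seen, were listed at 0 in each H1975 column. Other members of the fibroblast and endothelial list were present there: the 5 tested were all called higher in H1975, and 3 of them were large. The basement membrane genes HSPG2, at 59.8 ± 0.544 TPM in COLO 201 and 1.38 ± 0.113 TPM in H1975, and LAMB1, at 32.1 ± 0.711 and 5.74 ± 0.235 TPM, were higher in COLO 201, as was ECM1. TNC did not pass the test, at 133 ± 2.08 TPM and 135 ± 0.822 TPM (adjusted p = 0.57, limma). It was called higher in H1975 with the TPM as deposited (-0.45), a common sum (-0.14) and quantile normalization (-0.17), and higher in COLO 201 in the doxycycline columns (0.76).

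The coat of caveolae, small membrane pits built from caveolins and cavins, was split. CAV1, the main caveolin, was at 39.7, 39.4 and 37.4 TPM in COLO 201 and 271, 306 and 282 TPM in H1975, a 7.38-fold difference. PTRF, the current CAVIN1 and the cavin that caveolae need, was at 0.746, 0.825 and 0.833 TPM and 199, 195 and 206 TPM. EHD2, an ATPase at the caveolar neck, averaged 0.0152 ± 0.00418 TPM and 67.6 ± 0.743 TPM. Against these, PRKCDBP (CAVIN3) was at 132, 132 and 134 TPM in COLO 201 and 25.6, 26.5 and 27.7 TPM in H1975, and SDPR (CAVIN2) averaged 8.78 ± 0.0823 TPM and 1.38 ± 0.117 TPM. Of the 9 members 7 were tested, 3 were large towards H1975 and 2 towards COLO 201.

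Integrins, the receptors for matrix, were split between the lines. ITGB4 and ITGA6, which pair as the laminin receptor of hemidesmosomes, were both higher in COLO 201. ITGB4 was at 964, 966 and 1006 TPM against 8.65, 8.34 and 9.06 TPM. ITGA6 was at 774, 778 and 746 TPM against 59.1, 64 and 58 TPM. Of the fibronectin and vitronectin receptors, ITGA5 averaged 61.4 ± 2.38 TPM in H1975 and 6.42 ± 0.219 TPM in COLO 201, and ITGB3 11.1 ± 0.479 TPM against 0. The laminin-binding ITGA3 (261 ± 10.1 against 44.8 ± 1.6 TPM) and the collagen receptor ITGA2 (99.9 ± 5.91 against 18.4 ± 0.79 TPM) were also higher in H1975. Of 25 members 14 were tested, with 3 large towards COLO 201, ITGB8 being the third, and 4 towards H1975.

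The list of YAP and TEAD, a coactivator and its DNA-binding partners that respond to cell shape and contact, showed large differences only towards H1975. Beside targets it holds YAP1, WWTR1, TEAD1, TEAD2, TEAD3, TEAD4 and VGLL4, so its counts are not of targets alone. Of 30 members 29 were tested, 11 were large towards H1975 and 0 towards COLO 201, and the median of those tested was -0.92 beside -0.07 over all tested genes. CYR61, the matricellular protein now named CCN1, was at 0.0997, 0.219 and 0.128 TPM in COLO 201 and 87.5, 82.9 and 91.8 TPM in H1975. ANKRD1, a nuclear ankyrin repeat protein, was at 0.0295, 0.108 and 0 TPM and 27.8, 29.2 and 27.8 TPM. TGFB2 averaged 0.293 ± 0.0386 TPM and 29.7 ± 1.54 TPM, and CRIM1 6.68 ± 0.366 TPM and 56.3 ± 1.89 TPM.

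Promoter letters were looked up for the genes with a large difference, to show what the sequence before the start site holds at genes of the intestinal and the YAP and TEAD groups. RefSeq promoters (GRCh38.p14) matched 656 of 882 genes higher in COLO 201 and 813 of 1082 higher in H1975, without genes of the Y chromosome, and 4 motifs were searched on both strands in the 250 bases before the start. The HNF4 letters CAAAGTCC were in 2.13% of the promoters of genes higher in COLO 201, 0.492% of those higher in H1975, 0.875% of those tested and 1.02% of all promoters. The TCF letters CTTTGAT were in 1.37%, 0.984%, 1.24% and 2.28%, the AP-1 letters TGANTCA in 5.18%, 6.4%, 3.88% and 6.6%, and the TEAD letters GGAATG in 9.76%, 12.2%, 9.51% and 11.9%, in the same order. The middle base of TGANTCA was free, so its shares also count TGAATCA and TGATTCA, which are not the usual AP-1 site. The shares for HNF4 rest on 14 and 4 promoters. Both HNF4 and TEAD letters occurred at genes of either direction. HNF4 letters were also found at OSMR, higher in H1975, and TEAD letters at SDPR and TSPAN8, higher in COLO 201. A pair of windows is shown, both chosen after the matches were seen: MUC13, a mucin gene high in COLO 201, with HNF4 letters that begin 50 bases before the start (chr3:124934758-124934837, minus strand), and ANKRD1, high in H1975, with the first of 2 TEAD matches 220 bases before the start (chr10:90921266-90921337, minus strand). Capitals mark only the match named, which for MUC13 is on the opposite strand. MUC13 is in the mucin list and not in the intestinal lists. Its promoter also holds AP-1 letters 178 bases and TEAD letters 204 bases before the start. That of ANKRD1 holds a match to TGANTCA in the form TGATTCA 195 bases before the start.
MUC13: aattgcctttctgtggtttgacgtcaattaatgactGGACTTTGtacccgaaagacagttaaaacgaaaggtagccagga
ANKRD1: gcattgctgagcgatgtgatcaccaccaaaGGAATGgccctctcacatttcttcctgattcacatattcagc
A match is a run of letters and was not tested as a binding site.

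Among growth factor receptors, EGFR itself was higher in H1975, at 83.7, 87.5 and 83.4 TPM against 24.9, 25.1 and 25 TPM in COLO 201, a 3.39-fold difference. MET, the receptor for hepatocyte growth factor, was at 149, 159 and 147 TPM against 57.8, 58.1 and 56.9 TPM. Both were called and neither was large. The EGFR ligand AREG was higher in COLO 201, at 64.6, 68 and 72.5 TPM against 2.64, 2.11 and 2.42 TPM. Receptors for fibroblast growth factors were divided, with FGFR4 (37 ± 1.34 against 2.66 ± 0.291 TPM), FGFR2 and FGFR3 higher in COLO 201 and FGFR1 (3.05 ± 0.178 against 0.00178 ± 0.00309 TPM) in H1975, where the ERBB3 and ERBB4 ligand NRG1 was also found (5.87 ± 0.13 TPM against 0). Of 26 members of the EGFR family list 20 were tested, 4 were large towards COLO 201 and 3, with LRIG3 as the third, towards H1975.

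Of 30 output and feedback genes of the MAP kinase pathway 29 were tested, 6 were large towards COLO 201 and 3 towards H1975. DUSP4, a phosphatase that shuts off ERK, was at 106, 106 and 105 TPM in COLO 201 and 9.31, 8.6 and 8.45 TPM in H1975. The pathway inhibitor SPRY4 averaged 58.4 ± 0.27 TPM against 11.8 ± 0.108 TPM, SPRY1 36.9 ± 1.14 TPM against 4.3 ± 0.147 TPM, and the receptor EPHA4 53.9 ± 0.76 TPM against 1.34 ± 0.0715 TPM. Another ERK phosphatase, DUSP5, was higher in H1975 (62.6 ± 3.49 against 6.82 ± 0.462 TPM), as were the stress factor ATF3 (22.8 ± 0.648 against 1.14 ± 0.107 TPM) and MYC.

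MUC1, the mucin that the study silenced, was higher in H1975 with vehicle. The 3 columns of each line, given above, did not overlap, and the H1975 mean of 83.8 ± 9.89 TPM was 5.17-fold the COLO 201 mean of 16.2 ± 0.76 TPM. The difference was -2.30 ± 0.0794 (SE, adjusted p = 3.4e-09, limma), and an exact two-sided permutation test of these 6 values gave p = 0.1, the smallest that 3 against 3 can give. MUC1 lies at chromosome 1, 155185824 to 155192916, on the minus strand of GRCh38 (GENCODE 29). Some other mucins were higher in COLO 201. MUC13, a membrane mucin of the gut, was at 115, 118 and 113 TPM against 0.206, 0.155 and 0.128 TPM. The small mucin-like MUCL1 averaged 220.3 ± 2.05 TPM against 0.42 ± 0.17 TPM and MUC20 20.3 ± 0.57 TPM against 0.464 ± 0.0785 TPM. Of 19 mucins 8 were tested and 11 were under the minimum, 5 of those tested were higher in COLO 201, 4 (with MUC5B) were large towards COLO 201, and MUC1 and MCAM (29.7 ± 0.588 against 0.107 ± 0.0388 TPM) towards H1975. Enzymes that build mucin-type O-glycans were closer, with 31 of 36 tested, 5 large towards COLO 201 and 1 towards H1975. The chain-extending B3GNT3 averaged 109 ± 0.304 TPM in COLO 201 and 10.4 ± 0.18 TPM in H1975, the fucosyltransferase FUT4 51.2 ± 0.996 TPM and 5.65 ± 0.295 TPM, and the initiating GALNT5 44.5 ± 0.632 TPM and 3.04 ± 0.144 TPM, while GALNT18 was higher in H1975. FUT3 and ST6GALNAC1 were the other large differences towards COLO 201.

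Ligands of NKG2D, the activating receptor of natural killer cells, were all at modest levels. MICA was at 9.19, 8.8 and 8.07 TPM in COLO 201 and 21.9, 21.2 and 23.8 TPM in H1975, a 2.57-fold difference without overlap. MICB was at 5.8, 5.42 and 5.0 TPM and 6.14, 6.68 and 6.11 TPM (difference -0.19, adjusted p = 0.0132, limma). The MICB difference was the smallest of those called among the study's genes, its columns did not overlap, and it did not pass without the third COLO 201 column (-0.14, adjusted p = 0.0549, limma) and was near 0 with quantile normalization (0.00085). In the doxycycline columns MICB was higher in COLO 201 (0.49). ULBP1, another NKG2D ligand, was the 1 large difference among the 17 ligands and shedding proteases, of which 14 were tested, and was at 2.04, 2.02 and 2.11 TPM against 23.3, 26 and 22.6 TPM. PDIA6, a disulfide isomerase involved in MICA shedding, averaged 377 ± 9.11 TPM in COLO 201 and 163 ± 5.07 TPM in H1975. The sheddase ADAM10 averaged 144 ± 1.51 and 84.9 ± 3.31 TPM.

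For the release of exosomes, RAB27A, a small GTPase that docks their source organelles at the membrane, was at 16.3, 16.4 and 16.2 TPM in COLO 201 and 29, 29.2 and 27.4 TPM in H1975. Of 43 genes of exosome machinery and tetraspanins 40 were tested, and 31 of the 40 were not large. In each line 19 were called higher, beside 43.2% (COLO 201) and 47.9% (H1975) of all tested genes. The tetraspanin TSPAN8 (147 ± 5.0 against 1.83 ± 0.332 TPM), CD82 (29.9 ± 0.552 against 1.03 ± 0.098 TPM) and the cargo proteoglycan SDC1 (676 ± 14.2 against 119 ± 7.13 TPM) were large towards COLO 201. The small GTPase RAB31 (57.9 ± 2.38 against 1.45 ± 0.0866 TPM) and CHMP4C, a subunit of the membrane-cutting ESCRT complex (112 ± 3.3 against 18.4 ± 1.07 TPM), were large towards H1975. With TSPAN14, 5 genes were large towards COLO 201, of which 4 are named here, and SYTL5 and TSPAN4 completed the 4 towards H1975.

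Interferon-stimulated genes were higher in H1975 with few exceptions. Of 42 members 41 were tested, 38 were higher in H1975 and 2 in COLO 201, 18 were large towards H1975 and 0 towards COLO 201, and the median was -1.77 beside -0.07 over all tested genes. IFITM1, a membrane protein that blocks virus entry, was at 0.133, 0.0974 and 0.256 TPM in COLO 201 and 288, 259 and 239 TPM in H1975. IFI44L was listed at 0 in each COLO 201 column and was at 42.9, 45.9 and 39.8 TPM in H1975. IFIT1, which binds viral RNA, was at 1.98, 2.12 and 2.02 TPM and 51.4, 56.7 and 48.2 TPM. These 3 genes were fully apart, while IFIT1 was present in both lines. IFI44 averaged 1.38 ± 0.378 TPM against 65.4 ± 3.57 TPM and the ISG15 ligase HERC5 0.0634 ± 0.0456 TPM against 13.8 ± 1.08 TPM. The transcription factor IRF7 did not pass the test (18.4 ± 1.13 and 19.6 ± 2.42 TPM, adjusted p = 0.382, limma), and IRF1 was 1 of the 2 genes higher in COLO 201 (14 ± 0.716 against 11.1 ± 0.465 TPM), beside IFI35. With the TPM as deposited both IRF1 (-0.10) and IFI35 (-0.10) were below 0, and IRF7 passed the test towards H1975 (-0.50). IRF7 also passed with a common sum (-0.20) and without the second H1975 column (-0.18, adjusted p = 0.0285, limma), and was higher in COLO 201 in the doxycycline columns (0.93).

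The classical HLA genes HLA-B and HLA-C differed in opposite directions. HLA-B was at 41.1, 45.3 and 46.9 TPM in COLO 201 and 265, 261 and 280.3 TPM in H1975. HLA-C was higher in COLO 201, at 261, 263 and 275 TPM against 133, 127 and 129.8 TPM. The shared light chain B2M was at 193, 187 and 194 TPM and 474, 522 and 491 TPM. HLA-B was the 1 large difference among 22 genes of class I presentation, of which 21 were tested. Of these, 12 were called higher in H1975 and 9 in COLO 201, beside 47.9% and 43.2% of all tested genes. HLA genes are similar to each other in sequence and differ between people, so reads may be split among them or lost, and values between lines are uncertain.

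Ligands for immune checkpoints and for natural killer or death receptors differed in both directions, with 24 of 27 tested, 6 large towards H1975 and 4 towards COLO 201. CD274, which encodes PD-L1, was at 3.82, 3.68 and 3.66 TPM in COLO 201 and 23.7, 24.8 and 24.3 TPM in H1975. PVR, a ligand of TIGIT and DNAM-1, averaged 26.9 ± 0.63 TPM and 166 ± 4.79 TPM, while its relative PVRL2 (NECTIN2) averaged 112 ± 4.69 TPM and 13 ± 0.857 TPM. The adhesion ligand ICAM1 was higher in H1975 (40.4 ± 1.74 against 1.81 ± 0.233 TPM). LGALS9 (30 ± 1.23 against 0.448 ± 0.0422 TPM), VTCN1 (24 ± 1.03 against 0.279 ± 0.039 TPM) and the death ligand TNFSF10 (31.3 ± 0.906 against 1.22 ± 0.13 TPM) were higher in COLO 201. Of 32 targets of NF-kB and cytokines 24 were tested, 9 were large towards H1975 and 1 towards COLO 201. TNFAIP2 averaged 131 ± 6.89 TPM in H1975 and 6.35 ± 0.255 TPM in COLO 201, and the calcium-binding S100A9 24.1 ± 1.35 TPM against 0. The growth factor CSF2 was the exception, at 23.8 ± 1.61 TPM in COLO 201 and 1.49 ± 0.384 TPM in H1975.

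**Figure D3:**
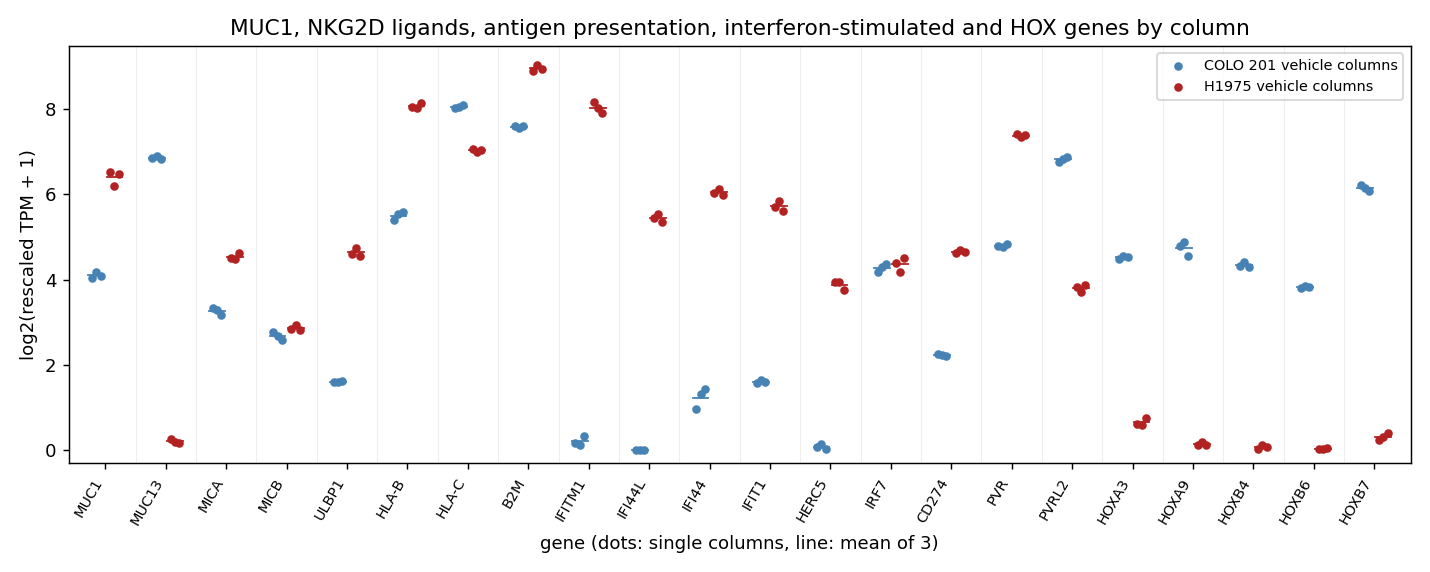
log2(rescaled TPM + 1) of MUC1, MUC13, NKG2D ligands, antigen presentation, interferon-stimulated, checkpoint ligand and HOX genes in each vehicle column, with dots for single columns and a line for the mean of 3. The interferon-stimulated genes IFITM1, IFI44L, IFI44, IFIT1 and HERC5 are higher in all H1975 columns and the 5 HOX genes in all COLO 201 columns, while MICB and IRF7 lie close together.

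Enzymes of detoxification and redox balance, many of them targets of NRF2, differed strongly in both directions: 35 of 37 were tested, 10 were large towards COLO 201 and 8 towards H1975, and the median was -0.06. GPX2, a glutathione peroxidase of the gut, was at 1144, 1084 and 1181 TPM in COLO 201 and 2.83, 3.12 and 3.69 TPM in H1975. ALDH1A1, a retinal dehydrogenase, was at 259, 248 and 251 TPM and 0, 0 and 0.0143 TPM. HMOX1, which breaks down heme, was at 10.9, 10.3 and 12.1 TPM and 517, 474 and 550.1 TPM. The first 2 were near 0 in H1975, and HMOX1 was low but present in COLO 201. FTH1, the heavy chain of the iron store ferritin, averaged 9394 ± 537 TPM in H1975 and 903 ± 4.23 TPM in COLO 201. The aldose reductase AKR1B1 averaged 569 ± 37.6 TPM and 11.4 ± 1.7 TPM, whereas AKR1C3 (109 ± 4.26 against 5.18 ± 0.127 TPM) and ALDH3A1 (93 ± 1.22 against 0.38 ± 0.0617 TPM) were higher in COLO 201. The NRF2 target NQO1 did not pass the test, at 421 ± 1.97 and 433 ± 3.63 TPM (adjusted p = 0.203, limma). It was called higher in H1975 with the TPM as deposited (-0.48), a common sum (-0.17) and quantile normalization (-0.22), and higher in COLO 201 in the doxycycline columns (0.35).

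Most cell cycle genes were higher in COLO 201. Of 50 members 49 were tested, 39 were higher in COLO 201 and 8 in H1975, 6 were large, all towards COLO 201, and the median was 1.27. RB1, the retinoblastoma protein that holds cells before S phase, was at 89.3, 89.9 and 77.3 TPM in COLO 201 and 2.44, 2.77 and 2.31 TPM in H1975. The replication helicase subunit MCM3 was at 607, 607 and 609 TPM and 83.3, 80.1 and 77.8 TPM. The proliferation marker MKI67 averaged 228 ± 1.66 TPM and 47.3 ± 1.88 TPM, the cyclin CCND3 69.1 ± 1.88 TPM and 6.99 ± 0.347 TPM, and the inhibitor CDKN2A 53.3 ± 2.39 TPM and 20.6 ± 0.829 TPM. The cell cycle inhibitor CDKN1A, which the list does not hold, was large towards H1975, at 66.6, 67.3 and 72.8 TPM against 5.04, 4.29 and 5.39 TPM.

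Most chromatin regulators had no large difference. Of 34 genes of DNA methylation, Polycomb and SWI/SNF complexes 33 were listed and 32 tested, 25 were higher in COLO 201 and 6 in H1975, and 29 were not large. EZH2, the Polycomb methyltransferase, was at 112, 109.6 and 109 TPM in COLO 201 and 50.5, 51.3 and 48.6 TPM in H1975. The maintenance methyltransferase DNMT1 averaged 113 ± 1.13 TPM and 73.3 ± 1.22 TPM, and DNMT3B 3.72 ± 0.349 TPM and 6.34 ± 0.316 TPM. DNMT3A did not pass the test (14.7 ± 0.25 and 15 ± 0.336 TPM, adjusted p = 0.502, limma), but was called higher in H1975 with the TPM as deposited (-0.44) and a common sum (-0.15) and higher in COLO 201 in the doxycycline columns (0.35). The Polycomb subunit CBX2 was large towards COLO 201 (20.1 ± 0.868 against 2.56 ± 0.289 TPM) and SMARCD3 (9.35 ± 0.628 against 0.235 ± 0.0335 TPM) and SMARCA1 towards H1975.

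HOX genes, which keep the position of a tissue along the body axis, had large differences towards COLO 201 and none towards H1975. Of 39 members 26 were tested, 14 were large towards COLO 201 and 0 towards H1975, and 5 were called higher in H1975. HOXB7 was at 73, 69.6 and 66.4 TPM in COLO 201 and 0.182, 0.236 and 0.32 TPM in H1975. HOXA9 was at 26.6, 28.7 and 22.5 TPM and 0.091, 0.148 and 0.10 TPM. HOXB4 averaged 19.3 ± 0.942 TPM against 0.0577 ± 0.0369 TPM, HOXA3 22 ± 0.621 TPM against 0.576 ± 0.0941 TPM, and HOXB6 13.2 ± 0.331 TPM against 0.0287 ± 0.00882 TPM. The 5 called higher in H1975 were all of the HOXC cluster: HOXC8 (5.61 ± 0.813 against 0.716 ± 0.131 TPM), HOXC9 (7.1 ± 0.595 against 1.75 ± 0.68 TPM), HOXC10 (5.8 ± 0.414 against 1.27 ± 0.116 TPM), HOXC4 and HOXC13 (above 0 with quantile normalization, at 0.053), named after their values were seen. Within each cluster the genes are neighbours, so they are not independent of one another.

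Most of the listed markers of cell types foreign to both lines were under the minimum for the test. The lists are not complete: LCK, given above as abundant in COLO 201, is not among the leukocyte markers. Nor are GZMA (71.7 TPM in COLO 201), SPN (58.7 TPM), PRF1 (45.5 TPM) and CD5 (16.1 TPM), also known from leukocytes. Each of them was under 0.1 TPM in every H1975 column, and they were named after their values were seen. Leukocyte genes outside the list were not counted in either direction. Of 35 members of the list of cancer-testis antigens 3 were tested, each large towards H1975. CXorf61 (the current CT83) was at 127, 119 and 123 TPM against 0, and PRAME at 19.8 ± 0.275 TPM against 0.469 ± 0.0332 TPM. TFPI2, a protease inhibitor that the list also holds and not such an antigen, was at 30.8 ± 1.78 TPM against 0. Of the 21 fibroblast and endothelial markers 20 were listed and 5 tested, with COL1A1, COL1A2 (10.2 ± 0.35 TPM against 0) and ACTA2 (8.35 ± 0.216 against 0.127 ± 0.00556 TPM) large towards H1975. Their summed level was 2.02 to 2.13 TPM over the COLO 201 columns and 52.4 to 56.1 TPM over the H1975 columns. Of 25 leukocyte and erythroid markers 6 were tested, and their sum was 1472 to 1526 TPM in COLO 201, most of it LYZ, and 145 to 155 TPM in H1975, most of it CD68 (137 ± 5.05 TPM). PTPRC, which marks leukocytes, was at 0 ± 0 TPM in COLO 201 and 0.00929 ± 0.0125 TPM in H1975, named after its value was seen. The macrophage receptor CSF1R was at 6.1 ± 0.109 TPM in H1975 and 0.0123 ± 0.0108 TPM in COLO 201, and the hemoglobin gene HBA2 at 5.73 ± 1.53 TPM in COLO 201 and 0 in H1975. Of 25 neuroendocrine markers 6 were tested and 4 were large towards H1975, namely the ubiquitin hydrolase UCHL1 (39.6 ± 0.466 TPM against 0), SCG5, ENO2 and DLL3, while 11 were at 0 in all 6 columns. Of 24 plasma proteins of the liver 4 were tested, with APOH large towards COLO 201 and SERPINA1 (37.1 ± 1.42 against 0.908 ± 0.0982 TPM) and C3 (16 ± 0.793 against 0.0506 ± 0.0145 TPM) towards H1975. The part of other cells in these values was not tested. HBA2 has a near-identical copy, PRSS1 has close paralogs and FTH1 has many processed copies, so their reads may be split and their values are uncertain.

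The 29 housekeeping genes, which were not singled out to set the scale, were all tested, none was large, and their median was 0.08. Called higher were 14 in COLO 201 and 11 in H1975, beside 43.2% and 47.9% of all tested genes. PGK1, a glycolytic enzyme, averaged 218 ± 3.58 TPM in COLO 201 and 215 ± 5.15 TPM in H1975 (adjusted p = 0.487, limma). The sign of its difference flipped, and it passed the test, with the TPM as deposited (-0.41), a common sum (-0.10) and quantile normalization (-0.18).

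**Figure D4:**
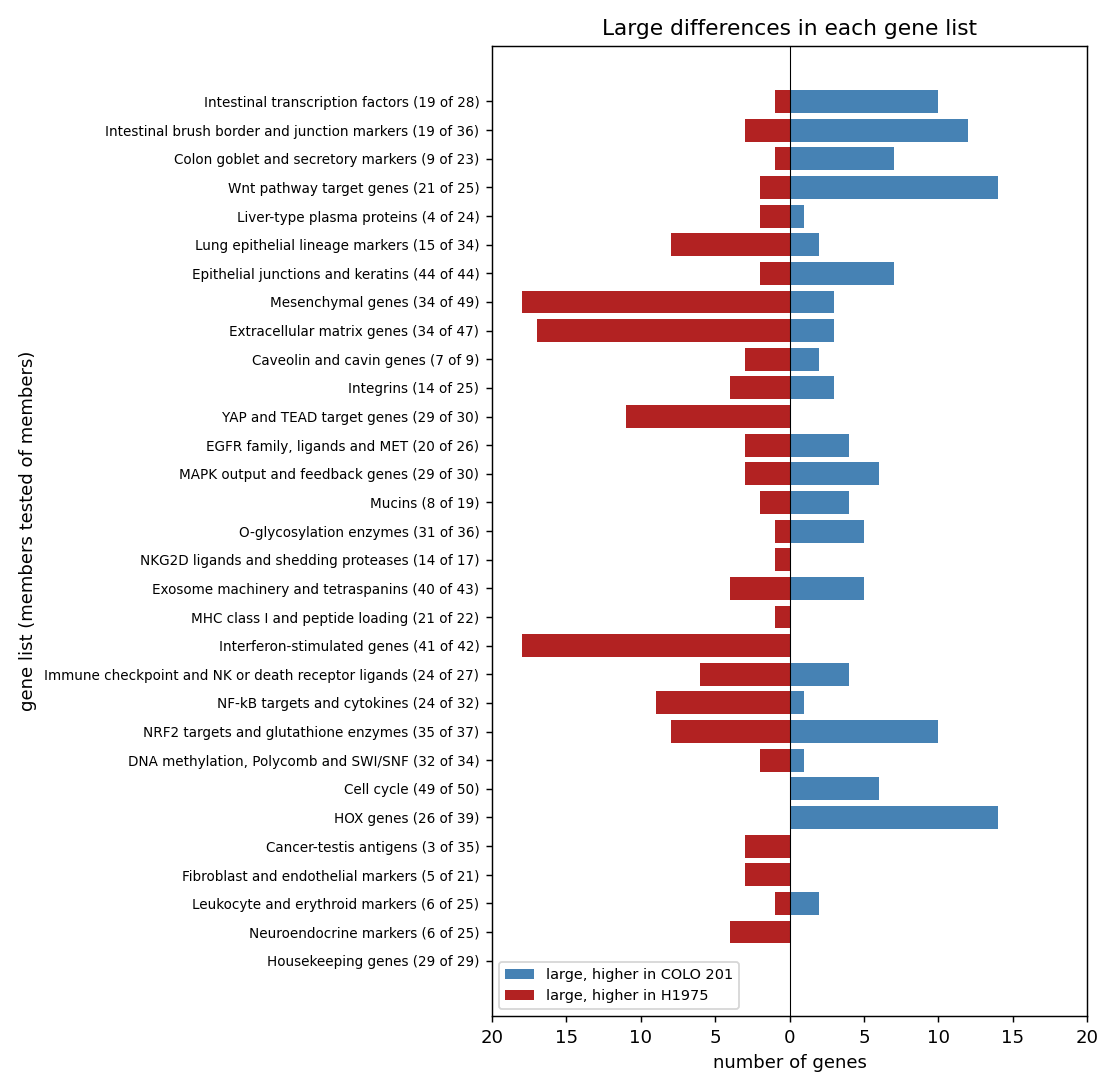
Number of genes with a large difference in each of 31 lists, to the right for COLO 201 and to the left for H1975, with the members tested of all members in parentheses. Wnt targets (14 to 2) and HOX genes (14 to 0) lean to COLO 201, interferon-stimulated genes (0 to 18), mesenchymal genes (3 to 18) and matrix genes (3 to 17) to H1975, and housekeeping genes have none.

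Differences also followed chromosomes. Chromosome 13 had a median of 1.74 over 202 tested genes, of which 78 (38.6%) were large towards COLO 201 and 8 towards H1975. In windows of 10 Mb with at least 20 tested genes, the median was 1.59 from 20 to 30 Mb, 2.07 from 30 to 40 Mb, 2.0 from 40 to 50 Mb and 1.02 from 110 to 120 Mb, so every window with enough genes was shifted towards COLO 201. RB1 (chromosome 13, 48303726 to 48599436, plus strand) and DNAJC15, a mitochondrial chaperone at 433, 411 and 424 TPM against 0.0181, 0.0589 and 0.0399 TPM, lie there. GAS6 and CDX2 also lie on chromosome 13. The next chromosomes by median were 21 (0.47), 20 (0.46) and 9 (0.38), and the lowest were 7 (-0.70), 14 (-0.53) and 3 (-0.50). On chromosome 17 the windows from 70 to 80 and from 80 to 90 Mb had medians of 1.04 and 1.03. ITGB4 lies in the first of these. On chromosome 19 the window from 20 to 30 Mb had a median of -2.37, with 22 of 32 tested genes large towards H1975 and 0 towards COLO 201, and that from 50 to 60 Mb a median of -1.57, with 64 of 180 large towards H1975 and 8 towards COLO 201. Of 226 windows 68 had a median past 0.5 in either direction. Gene copy number was not measured, and its part in these values was not tested.

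**Figure D5:**
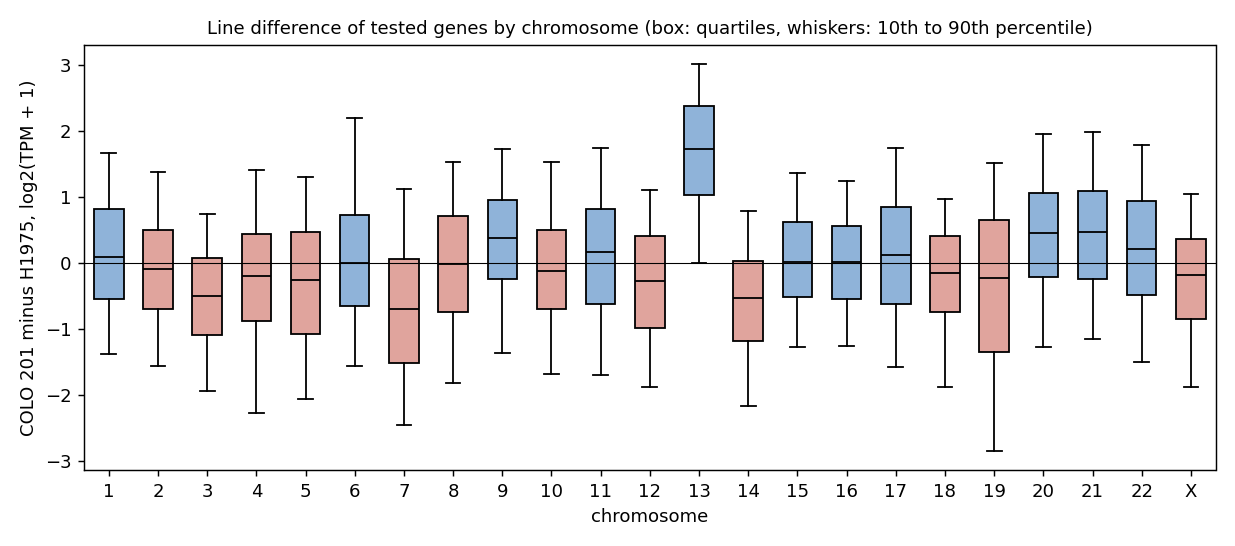
Difference between the lines, COLO 201 minus H1975 on the log2(TPM + 1) scale, of tested genes by chromosome, with boxes for quartiles, a line for the median and whiskers from the 10th to the 90th percentile. Chromosome 13 stands apart with a median of 1.74, and chromosome 7 is the lowest at -0.70.

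The doxycycline columns of the same lines, 6 separate samples, allowed the line difference to be read again. Of 12433 genes tested in them, 5315 were called higher in COLO 201 and 5684 in H1975, and 969 and 1024 were large. A call is thus the rule there too. The genes below were picked as large between the same lines, so a call in the same direction was likely beforehand. Of the 887 genes large towards COLO 201, 878 were tested there, 877 were called in the same direction and 799 were again large. Of the 1082 large towards H1975, 1068 were tested, 1067 were called in the same direction, 905 were again large and 1 went the other way. That gene, named after its value was seen, was IFI6, an interferon-stimulated gene of mitochondria, at 157, 157 and 172 TPM in the COLO 201 vehicle columns and 1147, 1054 and 1090.0 TPM in the H1975 vehicle columns. Its difference was -2.76 with vehicle and 0.38 with doxycycline. Both arms of a line are in the same table, so this comparison also does not separate line from table.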

How the data were processed

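Libraries were TruSeq Stranded mRNA libraries of column-purified RNA from triplicate cultures, per the labels' protocols. STAR, DESeq2 and GRCh38 are named, without versions or roles, in the submitters' processing notes. The authors deposited TPM in 1 table per line, and each column adds up to 1000000. Genes were joined by listed symbol, 28 date-like entries of COLO 201 and genes with prefix MT- or HIST were left out, and columns were rescaled by median ratio over 10578 genes of at least 1 TPM in all 6 (factors 0.848 to 0.880 in COLO 201, 1.12 to 1.19 in H1975). Matching older symbols added 0 genes. Then log2(TPM + 1) was tested with limma 3.58.1 (R 4.3.3, trended prior variance, Benjamini-Hochberg over 12463 genes), a procedure checked on simulated data. Positions came from GENCODE 29 for 19271 symbols. Named genes were the study's own, the 15 with the greatest difference in each direction, up to 5 large members per direction and a pair of near-equal members of each of 32 lists, fixed anchors, and those next to the threshold. Members and lists were chosen with earlier results of these data known. Alternatives covered scaling, pseudocount, minimum, threshold, arm, block and left-out columns. UHRF1, PECAM1 and the RKO table were not analysed here, and some genes and 1 list are not reported here.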

Additional observations from a re-analysis of the deposited data

Results flagged for a closer look

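For 26 genes of the text the difference between the lines was itself different in the doxycycline columns by 1 or more on the log2 scale, by the interaction term of a limma fit over all 12 columns (adjusted p under 0.05). Such a change was found for 316 of 12502 genes (2.53%) in that fit. Values are the line difference with doxycycline minus that with vehicle, so a gene higher in COLO 201 with a negative value was less far apart with doxycycline. The hairpin, doxycycline and replacement of DMSO cannot be told apart in these columns.

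Genes high in COLO 201 that came closer to H1975 with doxycycline were SDPR -1.89, LGALS4 -1.52, PHGR1 -1.43, HNF4A -1.29, MUCL1 -1.22, LYZ -1.13, MUC5B -1.12, EVPL -1.11 and the hemoglobin gene HBA2 -2.53. In this fit the doxycycline columns minus the vehicle columns gave -1.32 for HNF4A in COLO 201 and -0.032 in H1975. In the same direction, genes already higher in H1975 moved further apart: SPINK1 -1.50, CREB3L1 -1.25, CAV1 -1.23, CRIM1 -1.19, CCND1 -1.09, G0S2 -1.09 and DUSP5 -1.02.

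The opposite sign was found for GPX2 (1.73), COL1A1 (1.52), S100A4 (1.29), NKD1 (1.20) and TSPAN8 (1.03). It was also found for 4 interferon-stimulated genes high in H1975: IFI6 (3.11), IFIT1 (1.47), IFI44L (1.35) and IFITM1 (1.00). IFI35, an interferon-stimulated gene higher in COLO 201 with vehicle, had the same sign (1.35). IFI6 was at 122 ± 16.4 TPM in the H1975 doxycycline columns and 157 ± 9.44 TPM in those of COLO 201, and IFIT1 at 11.2 ± 0.209 TPM and 0.918 ± 0.0757 TPM.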

How the results depend on the processing

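With a pseudocount of 5 the large differences were 491 towards COLO 201 and 418 towards H1975, with a threshold of 1 they were 2198 and 2550, and with a threshold of 3 they were 450 and 518. With the TPM as deposited 3500 genes were called higher in COLO 201, and the median of all tested genes moved to -0.48 (-0.19 with a common sum over shared genes). The highest chromosome median was 1.81 with a minimum of 5 TPM. Leaving out 1 column at a time gave 11072 to 11325 called genes, 5224 to 5411 of them higher in COLO 201 and 5782 to 5998 in H1975, with 868 to 909 large towards COLO 201, 1078 to 1104 towards H1975, and a MUC1 difference of -2.40 to -2.24. With the column number as a replicate block 11434 genes were called, 5417 higher in COLO 201 and 6017 in H1975, with 887 and 1083 large differences and a MUC1 difference of -2.30. The correlation of same-numbered columns' deviations was -0.086, 0.15 and 0.10, so the columns share a number only.

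Of 210 tested genes of the text, 199 kept direction and side of the adjusted p of 0.05 under all 18 settings. Staying large was not part of this count: MUC1 counted as kept with a difference of -1.38 in the doxycycline columns. Many of these genes were named for a large difference in the vehicle columns, and most settings refit those same columns. A high count was therefore likely beforehand, and no such count over all tested genes is given here. The sign changed for genes of small difference and for IFI6: with the TPM as deposited IFI35 (-0.10), IRF1 (-0.096) and PGK1 (-0.41), with a common sum PGK1 (-0.10), with quantile normalization DNMT3A (0.0028), HOXC13 (0.053), MICB (0.00085) and PGK1 (-0.18), and in the doxycycline columns DNMT3A (0.35), IFI6 (0.38), IRF7 (0.93), MICB (0.49), NQO1 (0.35) and TNC (0.76). The cause was not tested. SDPR was no longer called in the doxycycline columns (0.18). Depth sets how low a level can be read, and its absolute value is unknown.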

Other observations

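Zinc finger genes were looked at after the chromosome 19 values had been seen, as these windows are known to hold clusters of KRAB zinc finger genes, a family of repressors of transposable elements. Of 505 genes with symbols that begin with ZNF, 454 were tested, 118 (26.0%) were large towards H1975 and 7 (1.54%) towards COLO 201, beside 8.68% and 7.12% of all tested genes. On chromosome 19 the split was 91 to 2 of 228 tested, with a median of -1.57, and 41 of these genes were under 0.1 TPM in every COLO 201 column while 0 were under 0.1 TPM in every H1975 column. Genes that low in one line were tested only because the other line expressed them. The other 714 tested genes of chromosome 19 had 58 large differences towards H1975 and 53 towards COLO 201 and a median of 0.10. Of these, 35 were under 0.1 TPM in every COLO 201 column and 11 in every H1975 column. On other chromosomes 27 of 226 ZNF genes were large towards H1975 and 5 towards COLO 201, with a median of -0.27. ZNF880, a member at 0.0341, 0.050 and 0.0658 TPM in COLO 201 and 119, 123 and 114 TPM in H1975, stood among the 15 greatest differences. Zinc finger genes of one cluster are similar in sequence, and reads could be split among them.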
